A study of Bos taurus with 6 samples.

Results

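The bovine-numbered miRNAs described here are the entries whose names carry a number from miR-2286 to miR-2489 or from miR-2881 to miR-2904. They were chosen by number, with any letter or arm, and 5 miRNAs within these numbers, miR-2332, miR-2411, miR-2478, miR-2887 and miR-2904, were left out with earlier results of these data known. The rule gave 266 entries of the 1055 in the deposited table, of which 890 are miRBase entries and the rest putative miRNAs. Of the 266 entries, 244 carry the lower numbers and 22 the higher ones, and they name 258 mature miRNAs, since 5 of these are listed more than once.

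The question of the study was whether miRNAs of cumulus cells differ with the fate of the oocyte. Cumulus cells are somatic cells of the ovarian follicle that enclose the oocyte, and with it they form the cumulus-oocyte complex (COC). Pieces of cumulus were taken from bovine COCs after in vitro maturation, each oocyte was then fertilized and cultured on its own, and pieces were pooled by outcome into 6 small RNA libraries. Samples D, E and F are pools around oocytes that developed into blastocysts, and Samples A, B and C are pools around oocytes exposed to sperm that did not cleave (n = 3 each). All pools share the maturation culture with follicle stimulating hormone, and no source used here gives the age of the donor cows. Each library is a mixture of cells from several COCs, so no value belongs to a single oocyte.

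A miRNA is cut from a hairpin precursor by Drosha and Dicer, and one or both arms of the hairpin (5p and 3p) can be loaded into an Argonaute protein, which the bases of the seed guide to target mRNAs. miRBase numbers are given in the order of submission, so a run of numbers marks sequences found in the same period, here mostly in cattle, and not a family with a common seed. Many miRNA genes lie inside other genes and can be made from the transcript of their host.

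Library totals ran from 3551009 to 8139237 counts in the blastocyst samples and from 2776256 to 7865111 in the not-cleaved samples, with Samples D and A the deepest. The values are deposited counts, and CPM, the usual unit of relative abundance, scale them to the total of a library over all entries. A count of 0 allows up to 3 counts, which is 0.369 CPM in Sample D and 1.08 CPM in Sample B. Samples E and B stood apart from the others in the left-out miRNAs, which were set aside with earlier results of these data known. Their sum was 834 CPM in Sample E and 2084 CPM in Sample B, against 97.2 to 133 CPM elsewhere. Of the markers that check the cell type, the 3 miRNAs listed for gonadal somatic cells were miR-202, miR-132 and miR-212. Together they summed to 7208 to 7654 CPM in blastocyst samples and 7454 to 9673 CPM in not-cleaved samples, a sum that does not show the level of each. The 4 blood cell miRNAs summed to at most 3.07 CPM in blastocyst samples and 3.60 CPM in not-cleaved samples, with 2 of them at 0 in every library.

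Most bovine-numbered miRNAs were rare or not detected in cumulus cells. At least 1 count in any library was found for 131 of the 266 entries (49.2%), and 135 (50.8%) were at 0 in all 6 libraries. Of the 624 other miRBase entries, 498 (79.8%) had a count, among them all 9 entries of the left-out miRNAs. By class, the share was 85.2% of 391 entries for let-7 and miR-1 to miR-999, but 57.4% of 47 for miR-1000 to miR-2283. It was 72.5% of 102 for miR-2284 and miR-2285, and 73.3% of 75 for miR-2905 and up. All 6 libraries held counts of 39 bovine-numbered entries (14.7%) and of 337 other miRBase entries (54.0%). Between these ends, 31 bovine-numbered entries were seen in 1 library, 20 in 2, 15 in 3, 16 in 4 and 10 in 5.

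The higher numbers were nearly absent. Only 3 of the 22 entries from miR-2881 up had any count, each in a single library, and 128 of the 244 entries up to miR-2489 had one. The highest count of the higher numbers was 10, for miR-2903 in Sample A, named here after its value was seen.

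**Figure D1:**
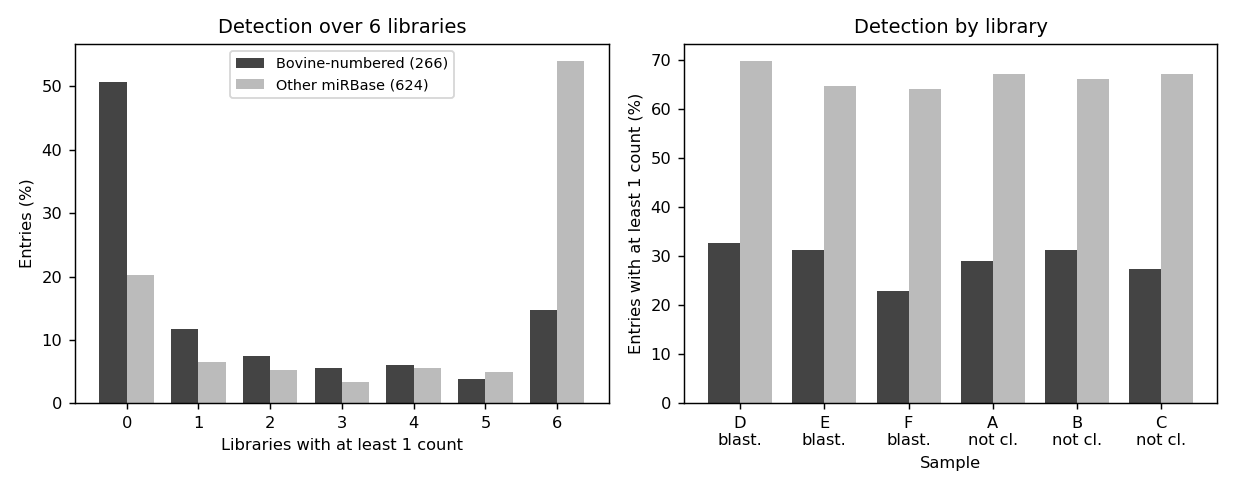
Share of entries in percent by the number of libraries with at least 1 count (left) and by library (right), for the 266 bovine-numbered entries (dark bars) and the 624 other miRBase entries (light bars). The bovine-numbered entries were mostly at 0 (50.8%), the others mostly in all 6 libraries (54.0%), and in each library the dark bar is the shorter one.

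By library, 87, 83 and 61 bovine-numbered entries were detected in Samples D, E and F, against 77, 83 and 73 in Samples A, B and C. Sample F had the fewest and Sample D, the deepest, the most, both from the blastocyst group, and the groups overlapped. As a share of the 266, this was 29.1% on average, against 66.4% of the other miRBase entries, a difference of -37.4 percentage points (SD 2.93, n = 6 libraries). The share was lower in 6 of 6 libraries (two-sided exact sign-flip permutation test over libraries, p = 0.03125, the smallest that 6 libraries allow). All libraries score the same lists of entries, and the left-out miRNAs were moved to the others with earlier results known. The p-value therefore speaks only to how far the libraries agree, not to the choice of entries. With every library reduced to the total of Sample B, the difference was -36.9 points, and with the left-out miRNAs counted as bovine-numbered it was -34.5 points.

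The number of detected entries did not differ between the groups beyond their spread. It was 77.0 ± 14.0 in blastocyst samples and 77.7 ± 5.03 in not-cleaved samples (SD, n = 3 each, two-sided exact permutation test, p = 1). The difference of -0.667 entries was 7.33 without Sample F and 2 without Sample B. Entries above 10 counts numbered 39, 31 and 24 in Samples D, E and F, against 42, 32 and 27 in Samples A, B and C. These averaged 31.3 ± 7.51 in blastocyst samples and 33.7 ± 7.64 in not-cleaved samples (SD, n = 3 each, exact permutation p = 0.7), where 3 libraries against 3 cannot reach a p below 0.1. The deepest library of each group had the most entries above 10 counts. Reduced to the depth of Sample B, the expected numbers of detected entries were 72.6, 78.2 and 58.5 in Samples D, E and F, against 70.3, 83.0 and 66.2 in Samples A, B and C. Sample F then still had the fewest, and the shallowest library, Sample B, the most.

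Detection in only 1 library rested on very few counts. There were 5, 6 and 2 such entries in Samples D, E and F, against 6 each in Samples A, B and C, and their highest counts were 4, 2 and 2 in the blastocyst samples and 10, 2 and 3 in the not-cleaved samples. Over all libraries, 64 of the 131 detected entries had 10 counts or fewer in total, and the median total was 11 counts, against 229.5 counts for the detected other miRBase entries. At the upper end, 48 entries had more than 10 counts in any library and 19 in all 6, and 26 had more than 50 counts in any library and 9 in all 6.

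In sum the bovine-numbered miRNAs were a very small part of the cumulus miRNA counts. They reached 811, 807 and 559 CPM in Samples D, E and F, against 879, 977 and 646 CPM in Samples A, B and C, which is 0.0559% to 0.0977% of a library. The lowest library was Sample F (95% Wilson interval 535 to 583 CPM, counting error only) and the highest Sample B, and the groups overlapped. The means were 725 ± 144 CPM in blastocyst samples and 834 ± 170 CPM in not-cleaved samples (SD, n = 3 each, exact permutation p = 0.4). The difference of -108 CPM turned to 106 CPM (exact permutation p = 0.9) when miR-21-5p, the most abundant miRNA, was taken out of the totals. The 102 entries of miR-2284 and miR-2285, the numbers next below, summed to 916, 135 and 779 CPM in Samples D, E and F, against 915, 1088 and 823 CPM in Samples A, B and C. Sample E was far below the rest in these, and not in the bovine-numbered sum.

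A few entries held most of these counts. miR-2484 alone made up 19.2% to 26.4% of the bovine-numbered counts by library, and the top 3 entries of a library 44.5% to 51.7%. miR-2484 ranked 105 among the 890 miRBase entries by mean CPM and was the highest bovine-numbered one. It was at 214, 201 and 108 CPM in Samples D, E and F, against 207, 227 and 124 CPM in Samples A, B and C. Each group had 1 low library, Samples F and C, and the groups overlapped. miR-2387, at rank 121, was the most even of the abundant entries, with 132, 150 and 113 CPM in Samples D, E and F, against 120, 138 and 125 CPM in Samples A, B and C. Its coefficient of variation (CV, the SD over the mean of the 6 libraries) was 10.2%, and the not-cleaved values lay within the blastocyst range. Its precursor lies in the span of GTF2IRD1, which encodes a transcription factor of the TFII-I family.

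miR-2440, at rank 155, was uneven. Its precursor lies in the span of RPL3, the gene of a protein of the large ribosomal subunit. It was at 73.3, 34.6 and 40.9 CPM in Samples D, E and F, against 93.5, 129 and 25.2 CPM in Samples A, B and C, a CV of 60.7%. Both its highest and its lowest library, Samples B and C, were from the not-cleaved group.

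**Figure D2:**
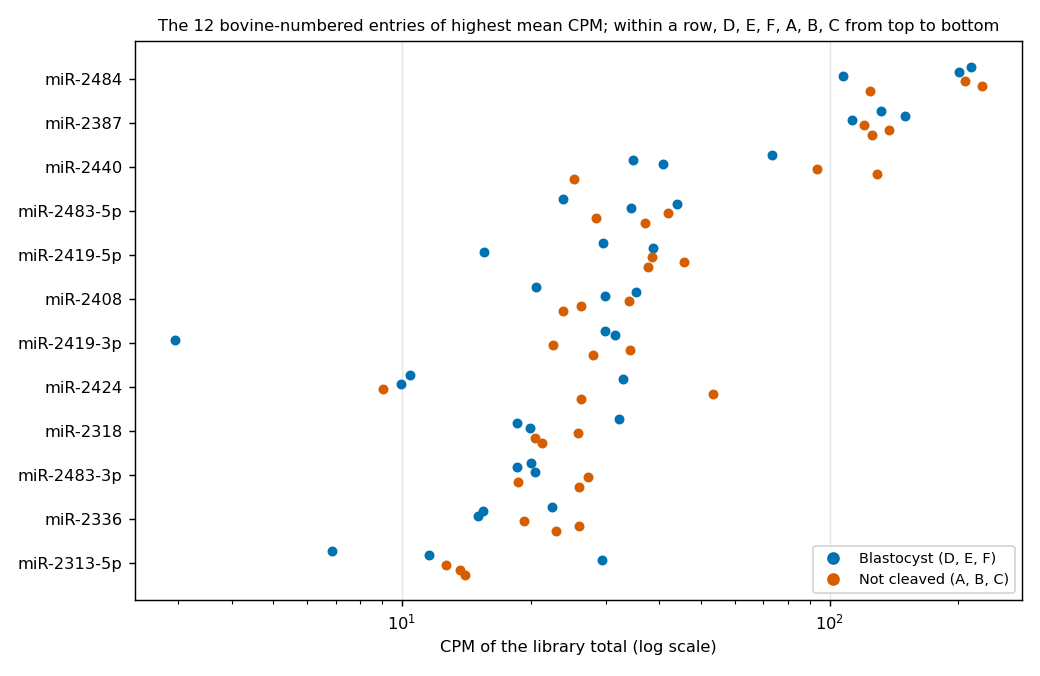
CPM of the library total (log scale) of the 12 bovine-numbered entries of highest mean CPM, with 1 point for each library, blastocyst samples in blue and not-cleaved samples in orange. The colours mix in every line, miR-2387 has the narrowest range (113 to 150 CPM) and miR-2419-3p has 1 point far to the left, Sample F at 2.96 CPM.

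The next entries were lower. miR-2483-5p, from the span of TENM1, a teneurin of the cell surface, was at 23.8, 43.9 and 34.4 CPM in Samples D, E and F, against 42.0, 28.5 and 36.9 CPM in Samples A, B and C. Its lowest and highest libraries, Samples D and E, were both blastocyst samples. miR-2408, from the span of PC, which encodes the pyruvate carboxylase of mitochondria, was at 20.6, 35.2 and 29.8 CPM in Samples D, E and F, against 33.9, 26.3 and 23.8 CPM in Samples A, B and C. Here too Samples D and E were the lowest and highest libraries, and the not-cleaved values lay between them. miR-2318, from the span of MADD, which encodes an exchange factor for Rab proteins, was at 32.2, 18.6 and 19.9 CPM in Samples D, E and F, against 25.8, 20.5 and 21.3 CPM in Samples A, B and C. Its 2 highest libraries were the deepest ones, Samples D and A.

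The entry named in the choice of these miRNAs for its uneven level, miR-2404, was not high in a single library but in 2, 1 of each group. Its 3 entries summed to 469, 40 and 12 counts in Samples D, E and F, against 420, 35 and 25 counts in Samples A, B and C. As levels these were 57.6, 11.3 and 3.23 CPM in Samples D, E and F, against 53.4, 12.6 and 5.84 CPM in Samples A, B and C. Samples D and A stood apart from all others, the groups overlapped fully, and the highest library was 17.9 times the lowest. The lower of Samples D and A was 4.24 times the highest other library in CPM and 2.46 times with upper-quartile scaling. Samples D and A are also the deepest libraries, and the part of depth in the result was not tested.

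The 3 entries of miR-2404 moved as one. Each held 30.3% to 37.1% of the miR-2404 counts in Sample D and 30.0% to 37.1% in Sample A, and no source used here says how reads were divided between them, so the entries are not independent measurements. miR-2404 made up 7.11% of the bovine-numbered counts in Sample D and 0.577% in Sample F, against 6.08% in Sample A. Among the 358 entries of the whole table that passed the expression filter, only these 3 had CPM in both Samples D and A at least 3 times every other library, a pattern chosen after the values were seen. A precursor of miR-2404 lies in the span of FHIP1A. The other bovine-numbered miRNAs with several entries, miR-2345, miR-2363, miR-2375 and miR-2888, were at 0 in every library.

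No bovine-numbered miRNA was a clear spike of a single library. A spike was set as at least 20 counts in a library at 4 times or more the CPM of the next highest one, and 0 of the 266 entries and 0 of all 1055 met it, where 38 and 368 had 20 counts in some library. At 2 times, 2 bovine-numbered entries of 25 in all did, miR-2313-5p in Sample F and miR-2463 in Sample B. With a minimum of 10 counts in place of 20 there was 1 of 6 in all, miR-2427, with 19 counts in Sample B and at most 6 in any other library.

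miR-2463, from the span of TMEM167A, had the widest spread of the tested entries described here (CV 115%). It was at 2.21, 7.60 and 1.88 CPM in Samples D, E and F, against 4.07, 22.3 and 3.04 CPM in Samples A, B and C. Sample B was 2.94 times the next library, Sample E, and these are the libraries that stand apart in the left-out miRNAs. miR-2313-5p, from the span of GRAMD1B, which encodes a carrier of cholesterol from the plasma membrane, was at 6.88, 11.5 and 29.3 CPM in Samples D, E and F, against 12.7, 13.7 and 14.0 CPM in Samples A, B and C. Sample F was 2.09 times the next library, and Sample D, of the same group, was the lowest.

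miR-2424 was high in 3 libraries. It lies in the span of NCAPD2, which encodes a subunit of condensin, and was at 10.4, 32.9 and 9.95 CPM in Samples D, E and F, against 9.03, 53.3 and 26.2 CPM in Samples A, B and C. Samples E, B and C stood above the other libraries, with low libraries in either group. miR-2388-5p, from the span of CUX1, a homeobox transcription factor, was at 0.737, 10.4 and 2.42 CPM in Samples D, E and F, against 10.4, 8.28 and 1.87 CPM in Samples A, B and C. Its high libraries were Samples E, A and B, again from either group. In CPM, Samples E and B were the 2 highest libraries for 7 of the 34 tested bovine-numbered entries (20.6%) and for 58 of the 358 tested entries of the table (16.2%), and with TMM scaling for 4 (11.8%) and 34 (9.5%). Samples D and A were the 2 highest for 6 (17.6%) and 16 (4.47%) in CPM and for 7 (20.6%) and 20 (5.59%) with TMM scaling, the 3 entries of miR-2404 among them. These counts were made after the values were seen and have no test.

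**Figure D3:**
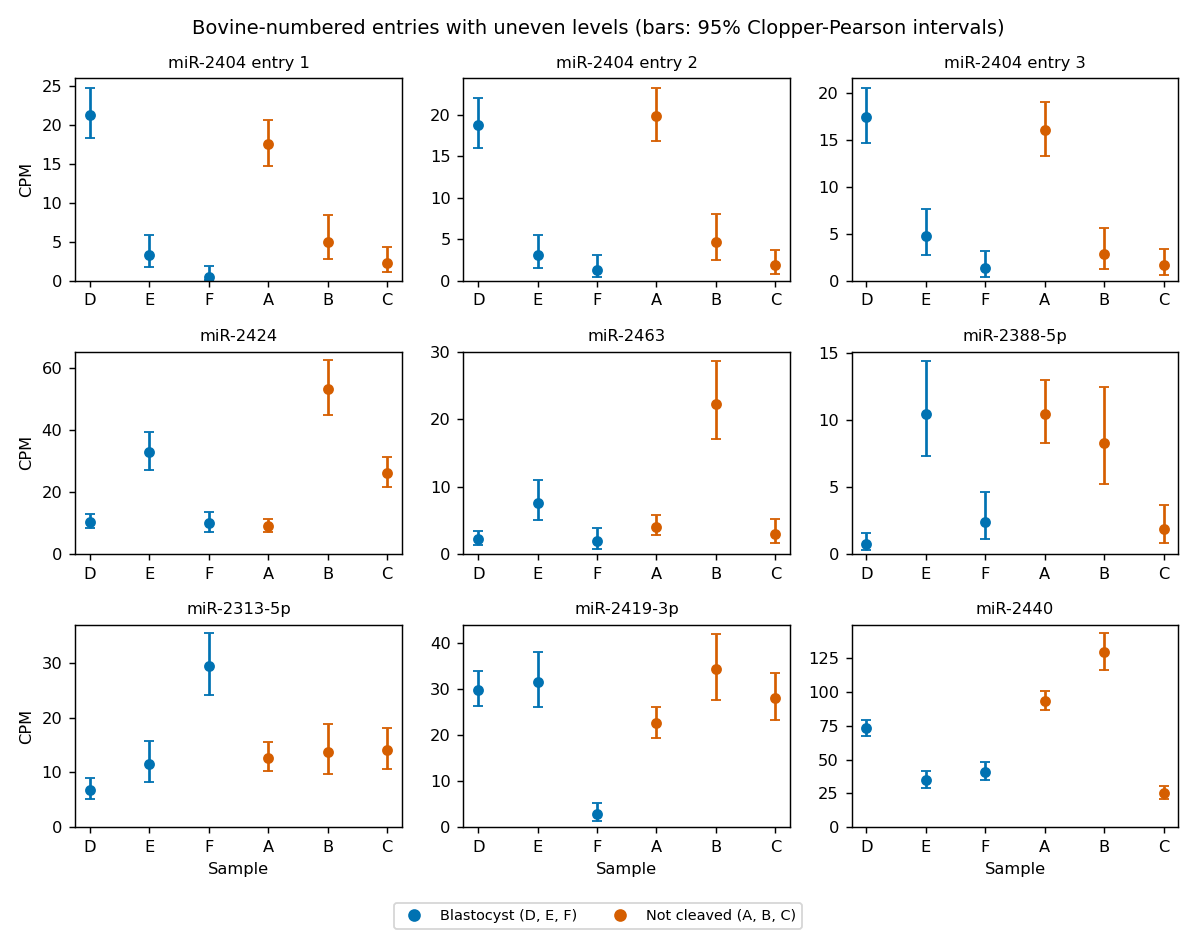
CPM by library of the 3 entries of miR-2404 and of 6 other uneven entries, blastocyst samples D, E and F in blue and not-cleaved samples A, B and C in orange, with 95% Clopper-Pearson intervals that cover counting error only. miR-2404 is high in Samples D and A, miR-2463 in Sample B and miR-2313-5p in Sample F, and miR-2419-3p is low in Sample F.

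Sample F was often the lowest library. With TMM-scaled CPM it was the lowest of the 6 for 17 of the 34 tested bovine-numbered entries (50%), against 62 of the 358 tested entries (17.3%). With miR-21-5p out of the totals it was lowest for 13 (38.2%) against 45 (12.6%), and with upper-quartile scaling for 12 (35.3%) against 45 (12.6%). The 17 include the 3 entries of miR-2404 and both arms of miR-2419 and of miR-2299, so they are not 17 independent miRNAs. Several lows were slight. In CPM the next lowest library was 1.03 times Sample F for miR-2336, 1.07 times for miR-2387 and 1.15 times for miR-2484, against 4.13 times for miR-2344. With TMM-scaled CPM, Sample E was the lowest for 0 of the 34 and for 65 of the 358 (18.2%). In CPM of the library total, Sample E was the lowest for miR-2318, miR-2483-3p and miR-2477. These counts of lowest libraries were made after the values were seen and have no test.

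The deepest of these lows was in miR-2419-3p. It was at 29.9, 31.5 and 2.96 CPM in Samples D, E and F, against 22.5, 34.2 and 28.1 CPM in Samples A, B and C. The 11 counts in Sample F (95% Clopper-Pearson interval 1.48 to 5.29 CPM) lay far under the next lowest library, which was 7.61 times higher. Its partner arm, miR-2419-5p, was at 29.5, 38.6 and 15.6 CPM in Samples D, E and F, against 38.5, 45.7 and 37.6 CPM in Samples A, B and C. Sample F was the lowest here too, but by 1.89 times, and the other libraries of the groups overlapped. miR-2344, from the span of TBCD, a folding cofactor of tubulin, was at 7.0, 8.73 and 1.08 CPM in Samples D, E and F, against 7.12, 6.84 and 4.44 CPM in Samples A, B and C, with 4 counts in Sample F. miR-2431-5p had 11, 16 and 0 counts in Samples D, E and F, against 23, 16 and 17 counts in Samples A, B and C, and the 0 of Sample F allows up to 0.806 CPM.

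Both arms of a hairpin were listed for 33 bovine-numbered miRNAs. Counts were found on both arms of 20, on 1 arm of 8 and on neither of 5, and 8 hairpins had at least 100 counts in total. The share of the 3p arm in miR-2419 was 50.3%, 45.0% and 15.9% in Samples D, E and F, against 36.9%, 42.8% and 42.7% in Samples A, B and C. In Sample F it rested on 69 counts of both arms (95% Wilson interval 9.14% to 26.3%) and lay under the intervals of all other libraries. The 3p share of miR-2483 was 45.7%, 29.7% and 37.3% in Samples D, E and F, against 39.3%, 39.7% and 41.3% in Samples A, B and C. Sample E was the lowest and Sample D the highest, with the not-cleaved samples between them.

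The remaining hairpins differed in how steady the arms were. In miR-2299, from the span of B3GLCT, a glycosyltransferase gene, the 3p share was 36.2%, 41.9% and 41.7% in Samples D, E and F, against 40.2%, 39.6% and 41.8% in Samples A, B and C, within counting error in all 6. miR-2313 was nearly all 5p, with a 3p share of at most 6.82%, in Sample E. miR-2320 was mostly 3p, at 87.1%, 77.8% and 96.6% in Samples D, E and F, against 73.7%, 96.3% and 38.5% in Samples A, B and C, where Sample C rested on 13 counts. In miR-2388 the 3p share was 50%, 5.13% and 0% in Samples D, E and F, against 2.38%, 0% and 50% in Samples A, B and C. The shares of 50% rested on 12 counts in Sample D and 16 in Sample C, libraries low in the 5p arm, and the groups overlapped.

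The 3p share separated the groups in 1 of the 8 hairpins, miR-2431. It was 60.7%, 40.7% and 100% in Samples D, E and F, against 28.1%, 11.1% and 26.1% in Samples A, B and C. All blastocyst samples were higher, but on 28, 27 and 8 counts of both arms, against 32, 18 and 23, and the 95% Wilson interval of Sample E (24.5% to 59.3%) overlapped those of the not-cleaved samples. Over all 40 miRBase hairpins listed with 5p and 3p names, at least 100 counts and a count in every library, this was the 1 whose groups did not overlap (2.5%), and 3 libraries against 3 cannot reach an exact p below 0.1. In miR-2382 the 3p share was 44.4%, 11.1% and 19.0% in Samples D, E and F, against 0%, 11.1% and 4.17% in Samples A, B and C, where Samples E and B were equal and rested on 9 and 18 counts.

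**Figure D4:**
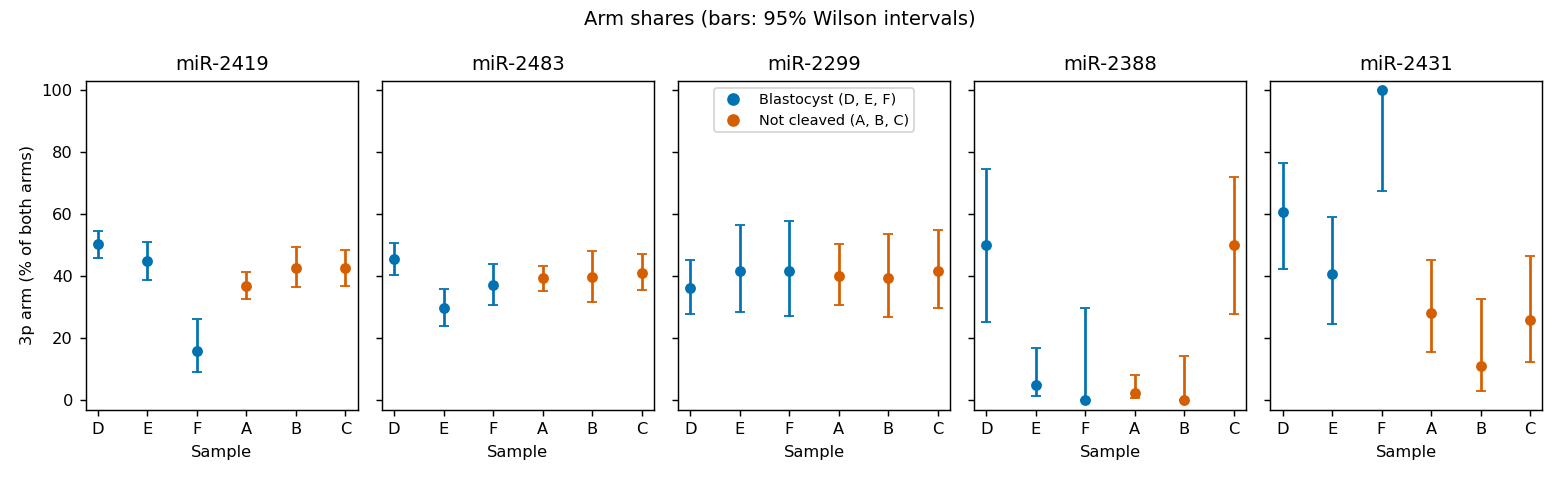
Share of the 3p arm in percent of the counts of both arms, by library, for 5 of the 8 hairpins with at least 100 counts, blastocyst samples D, E and F in blue and not-cleaved samples A, B and C in orange, with 95% Wilson intervals. Sample F stands low in miR-2419 (15.9%), the 6 libraries lie together in miR-2299, in miR-2388 Samples D and C are at 50%, and in miR-2431 the blastocyst samples are the higher ones, with wide intervals.

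The spread between libraries was larger than counting error for most tested entries. The CV over the 6 libraries was more than 2 times that of counting alone for 25 of 34, and at or under it for 2, miR-2299-3p (18.0%, with 21.1% from counting) and miR-2376 (26.0%, with 26.7% from counting). By level, the median CV was 53.0% for 19 bovine-numbered entries with a mean of 1 to 10 CPM, against 48.8% for 81 other miRBase entries. It was 28.7% for 12 entries at 10 to 50 CPM, against 31.1% for 69 others. At 50 to 250 CPM it was 28.2% for 3 entries, against 22.7% for 67 others.

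Between the groups, no bovine-numbered miRNA passed the test. The expression filter kept 358 entries of the table, 34 of them bovine-numbered (12.8% of the 266), which hold 95.1% of the bovine-numbered counts, and left out 97 with counts. In edgeR's quasi-likelihood test with Benjamini-Hochberg adjustment over all 358, 0 of the 34 were called, where 0% of all tested entries were, and the lowest adjusted p was 0.993. At an unadjusted p under 0.05 there were 0 of the 34 and 10 of the 358 (2.79%). Calls also numbered 0 with DESeq2, where 0 of the 34 and 7 of the 358 had an unadjusted p below 0.05, and 0 in the exact test of edgeR, where 0 and 4 had one. The TMM-scaled CPM of the groups did not overlap for 1 of the 34, lower in blastocyst samples, and for 34 of the 358 (9.5%), 17 in each direction. With a median SE of 0.52 on the log2 scale for the 34, against 0.36 for all tested entries, differences of moderate size were not detectable at this depth and n.

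The fitted log2 fold changes of blastocyst over not-cleaved samples ran from -1.13 to 0.81 for the 34 entries, with a median of -0.09, against -0.02 over all 358. They were above 0 for 11 and below 0 for 23 of the 34, and above 0 for 165 and below 0 for 193 of the 358. With upper-quartile scaling, under which all 358 entries had a median of 0.32, the split of the 34 was 23 above and 11 below with a median of 0.23. Relative to all entries the median of the 34 was at -0.07 with TMM and at -0.09 with upper-quartile factors. Of the 6 marker lists of other cell types, those of striated muscle and epithelium did not overlap between the groups. Beside this, 34 of the 358 tested entries (9.5%) did not overlap in TMM-scaled CPM, and the lists, sums of few entries, were not tested between the groups. The 5 striated muscle entries, all with counts, summed to 9.95 to 43.7 CPM in blastocyst samples and 4.45 to 4.91 CPM in not-cleaved samples, and the 5 epithelial ones, all with counts, to 152 to 208 CPM and 212 to 245 CPM. The lists of blood cells, early embryo, liver and neurons overlapped. That of neurons summed to 151 to 185 CPM in blastocyst samples and 123 to 171 CPM in not-cleaved samples. That of liver was at 21.7 to 63.9 CPM and 22.4 to 33.3 CPM, and that of early embryo at 0.123 to 8.45 CPM and 0 to 5.09 CPM. The part of these cell types in the values was not tested.

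The entry whose groups did not overlap was miR-2382-5p, from the span of PGP, a phosphatase of glycolytic by-products. It was at 1.32, 2.26 and 4.69 TMM-scaled CPM in Samples D, E and F, against 5.05, 4.88 and 5.92 in Samples A, B and C. The blastocyst samples were all lower, though Sample F lay close under Sample B, and Samples D and E held only 10 and 8 counts. Its log2 fold change was -0.97 (SE 0.56, edgeR quasi-likelihood adjusted p = 0.993). miR-2416, from the span of MACF1, a cross-linker of actin and microtubules, was at 25.5, 13.6 and 10.8 TMM-scaled CPM in Samples D, E and F, against 12.4, 4.88 and 11.6 in Samples A, B and C. Sample D was the highest and Sample B the lowest, with overlap between, and the log2 fold change was 0.78 (SE 0.50), or 0.34 without Sample D.

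The other entries of lowest unadjusted p had smaller or less certain differences. miR-2450a averaged 2.58 ± 1.08 TMM-scaled CPM in blastocyst samples and 4.28 ± 0.710 in not-cleaved samples (SD, n = 3 each), a log2 fold change of -0.70 (SE 0.48). It lies in the span of HTT, the huntingtin gene, where miR-2450b, miR-2450c and miR-2450d also lie, and those were at 0 in every library, as seen after their values were looked up. miR-2463 had a log2 fold change of -1.13 (SE 0.87), which was 0.11 without Sample B. miR-2316 had one of 0.81 (SE 0.73), with 4.79, 8.45 and 5.11 CPM in Samples D, E and F, against 1.02, 3.24 and 6.55 CPM in Samples A, B and C, where Sample C lay within the blastocyst range.

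The remaining 5 of the 10 lowest were below 0. They were miR-2366 at -0.53 (SE 0.41), miR-2419-5p at -0.44 (SE 0.37), miR-2308 at -0.55 (SE 0.47), miR-2431-5p at -1.02 (SE 1.0) and miR-2440 at -0.55 (SE 0.56). miR-2366 lies in the span of MAP1A, a microtubule-associated protein. For each of the 10 the groups differed by less than 2 SE, and the adjusted p of edgeR's quasi-likelihood test was 0.993 or above.

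**Figure D5:**
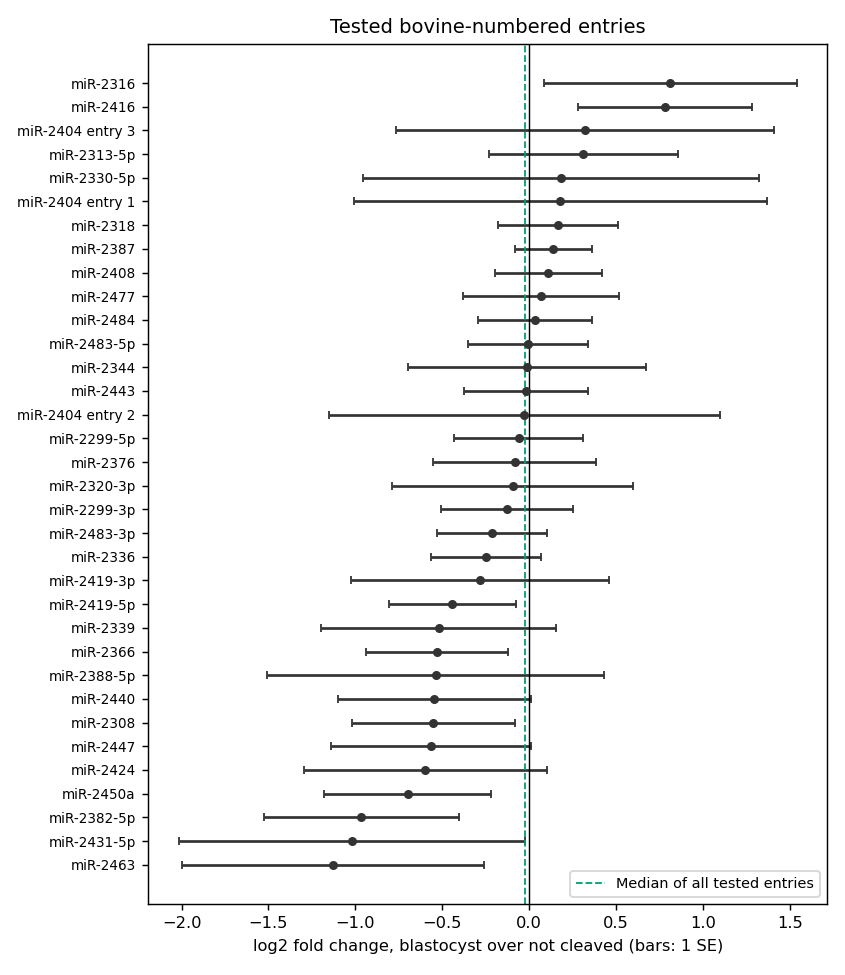
Fitted log2 fold change of blastocyst over not-cleaved samples for the 34 tested bovine-numbered entries, in order of value, with bars of 1 SE and the median of all 358 tested entries as a dashed line. The values run from -1.13 (miR-2463) to 0.81 (miR-2316), and the entries at the ends have wide bars.

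Most bovine-numbered miRNAs lie within other genes. Of the 258 mature miRNAs, 255 had a precursor in the table of RefSeq genes (ARS-UCD2.0), and for 210 of these (82.4%) it lay in the span of another gene, for 198 in that of a protein-coding one. None lay in the span of a snoRNA, snRNA, tRNA, rRNA or other small RNA gene. Counts were found for 111 of the 210 inside another gene (52.9%) and for 16 of the 45 outside (35.6%), a description with no test. The table gives no strand, so a span does not say that host and miRNA share a transcript. A further miRNA gene began within 10 kb for 21 of the 255. One of them, miR-2443, starts near the let-7 genes MIRLET7A-3 and MIRLET7B and was at 8.97, 13.5 and 7.80 CPM in Samples D, E and F, against 9.66, 14.8 and 8.88 CPM in Samples A, B and C. Samples E and B were its highest libraries, and the groups overlapped.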

How the data were processed

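The authors made small RNA libraries with the NEBNEXT kit, selected fragments of miRNA size, sequenced them, and deposited whole-number counts for each miRBase or putative entry without normalization. The sources used here name no aligner, counter or genome build. The deposited comparison of the groups (log2 fold change, p-value and FDR) and the log2 values chosen for a heat map were not used. Letters and groups of the libraries come from the column names and were not tied to single sample labels. No source used here says whether pools are from separate days or animals, so p-values reflect only how far these pools differ.

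Entries of the whole table were filtered with filterByExpr by group, scaled by TMM and tested with edgeR 4.0.16 (quasi-likelihood test, Benjamini-Hochberg at 0.05) in R 4.3.3. The SE was taken as the size of the log2 fold change over the square root of its F statistic. Single values were compared with exact permutation tests in Python 3.11.15 with scipy 1.17.1. Intervals are at 95% and cover counting error only, since PCR copies were not marked. Alternatives were DESeq2 1.42.0, upper-quartile factors, library totals, edgeR's exact test, other filters, merging the entries of a miRNA, totals without miR-21-5p, rarefied counts, other limits for a spike, and leaving out each library.

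The members, marker lists and rules were chosen with earlier results of these data known. Entries that could be named were those passing the filter, the 12 of highest mean CPM, single-library spikes, the 10 of lowest p, miR-2404, and hairpins with both arms listed. Gene neighbours are from RefSeq (ARS-UCD2.0), used for names only, with no coordinates, as the build of the counts is unknown. Sequences were not used here.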

Additional observations from a re-analysis of the deposited data

How the results depend on the processing

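No entry was called under any of the 14 alternatives to the group fit, the 6 that leave out a library included, and 133 of 134 alternative values of the 10 bovine-numbered miRNAs of lowest p kept their direction. The exception was miR-2463, at 0.11 without Sample B and as low as -1.96 without Sample E. The 10 were picked by p in these same libraries, so a kept direction is not separate support for it. An unadjusted p under 0.05 was reached by 2 of 37 bovine-numbered entries without Sample F, where 5 of all 369 tested entries reached it. Without Sample C it was reached by 1 of 35, where 4 of all 366 did, and in the other fits by 0 bovine-numbered entries. The filter at a mean of 50 counts did not test 6 of the 10. The median log2 fold change of the tested bovine-numbered entries was 0.23 with upper-quartile factors and -0.20 with library totals, where the medians of all entries were 0.32 and -0.13, and it ran from -0.29 (without Sample D) to -0.0012 (without Sample F) with 1 library left out. The group difference in summed CPM was 106 with miR-21-5p out of the totals. That in detected entries ran from -5.67 (without Sample D) to 7.33 (without Sample F) and that in entries above 10 counts from -6.17 (without Sample D) to 1.83 (without Sample A), with 1.33 without Sample F. The detected share minus that of other miRBase entries ran from -38.1 to -36.6 points, with an exact p of 0.0625, the smallest that 5 libraries allow, and was -36.9 with the left-out miRNAs in neither class, an alternative added after seeing the data. Single-library spikes numbered 2 at 2 times the next library and 1 with a minimum of 10 counts. The ratio of miR-2404 in Samples D and A over the others was 2.46 with upper-quartile factors, a setting added after seeing the data. The cause of these shifts was not tested. Depth limits the 97 detected but untested entries and all shares of arms that rest on few counts.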
